A study of Mus musculus with 9 samples.

Results

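The 8 genes described here encode transcription factors that drive epithelial-mesenchymal transition (EMT), the switch by which epithelial cells lose their junctions and take up mesenchymal traits. They are the zinc finger factors SNAI1, SNAI2, ZEB1 and ZEB2, the basic helix-loop-helix factors TWIST1 and TWIST2, the paired-type homeobox factor PRRX1 and the forkhead factor FOXQ1. Their rows were found by gene name, and the choice of these names was made with earlier results of these data known. All 8 were found, each in 1 row of a table of 58735 human genes, and all 8 passed the filter on low counts that left 15492 genes for testing.

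The RNA came from Caki cells, an established line from a human clear cell renal carcinoma, in 3 groups of 3 libraries. The MX cells carried the empty retroviral control vector MXIV, the YAP1 cells a vector for wild-type YAP1, and the YAP1-S127A cells a vector for YAP1 in which alanine replaces the serine at residue 127, a form described in the labels as constitutively active. Cells of all 3 groups were grown in DMEM/F12 medium with serum and selected with G418, so the controls share the selection. The labels do not say whether a group was a clone or a pool of cells, nor whether its libraries stem from separate cultures. The p-values therefore rest on the spread among libraries alone, and that spread may be technical. The series title also names HPV oncogenes, which no sample label mentions. Caki is given with the mouse as organism, whereas every row of the table is a human gene, and the values are read as human.

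SNAIL and ZEB proteins bind E-box sequences in the promoters of epithelial genes, CDH1 (E-cadherin) above all, and recruit corepressors that silence them. TWIST proteins bind E-boxes as dimers with the E proteins TCF3, TCF4 and TCF12, and ID proteins block them by occupying the same partners. PRRX1 and FOXQ1 have each been tied to EMT in carcinoma cells, and YAP1 acts on target genes through TEAD factors. Renal tubule cells arise from mesenchyme, and cultured clear cell carcinoma cells commonly carry VIM (vimentin) and CDH2 (N-cadherin) beside epithelial genes.

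Total counts were 15789722 to 24811150 per library, so that 3 counts corresponded to 0.107 to 0.229 CPM (read counts relative to library size), with library sizes scaled by edgeR's trimmed mean of M values (TMM) throughout. The introduced gene, YAP1, had 99.9 ± 8.64 CPM (SD, n = 3) in MX, 1220 ± 268 CPM under YAP1 and 688 ± 55.0 CPM with YAP1-S127A. The mitochondrial share of counts, from genes of the mitochondrial genome, was 1.9 to 6.60% in MX, 3.50 to 11.4% with YAP1 and 7.40 to 29.6% with YAP1-S127A. Of the 12 kidney lineage markers, PAX8 lay between 228 and 312 CPM in every library, while PAX2 and EMX2 never exceeded 0.0887 CPM. The summed level of these markers was 1140 to 1190 CPM in MX, 774 to 825 CPM under YAP1 and 517 to 631 CPM under YAP1-S127A. Most of that fall lay in CDH6, a kidney cadherin, which averaged 585.4, 277.1 and 126.7 CPM in the 3 groups, while PAX8 was not called. In bulk RNA fewer cells of a type and less RNA per cell cannot be told apart. Summed over all 7 leukocyte markers the level was 0.453 to 1.68 CPM, with CD3E and TYROBP at 0 in all libraries, and over all 5 endothelial markers 0.754 to 1.89 CPM. Genes were tested with edgeR's quasi-likelihood test over all 9 libraries and called at a Benjamini-Hochberg adjusted p under 0.05 over all tested genes. Scaling to total counts in place of TMM moved the median log2 fold change of all genes to -0.28 when YAP1-S127A was set against MX and to -0.20 when the constructs were compared. The share of calls that were higher then went from 51.9 to 13.7% and from 57.4 to 18.3% in those comparisons, and from 47.4 to 31.4% in that of YAP1 and MX.

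Scaled to gene length, FOXQ1 was the most abundant of the 8 factors in control cells, at 39.1 ± 3.37 CPM per kb (SD, n = 3). SNAI1 followed at 4.76 ± 0.953 and TWIST1 at 4.11 ± 1.03 CPM per kb, and the libraries of this pair overlapped. ZEB1 came next at 1.87 ± 0.365 and ZEB2 at 1.04 ± 0.222 CPM per kb, each apart from its neighbours in the order. TWIST2 and SNAI2 were low, at 0.284 ± 0.179 and 0.275 ± 0.0660 CPM per kb, and overlapped, and PRRX1 was lowest at 0.0609 ± 0.0285 CPM per kb. Averaged over the 9 libraries, FOXQ1 stood at percentile 86.3 of all tested genes by length-scaled level, TWIST1 at 60.9, SNAI1 at 57.5, ZEB1 at 36.5, ZEB2 at 28.2, SNAI2 at 13.3, TWIST2 at 12.6 and PRRX1 at 0.8. One member of each paralogous pair thus carried most of the length-scaled level of SNAI and TWIST genes, while ZEB1 and ZEB2 were nearer to each other.

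**Figure D1:**
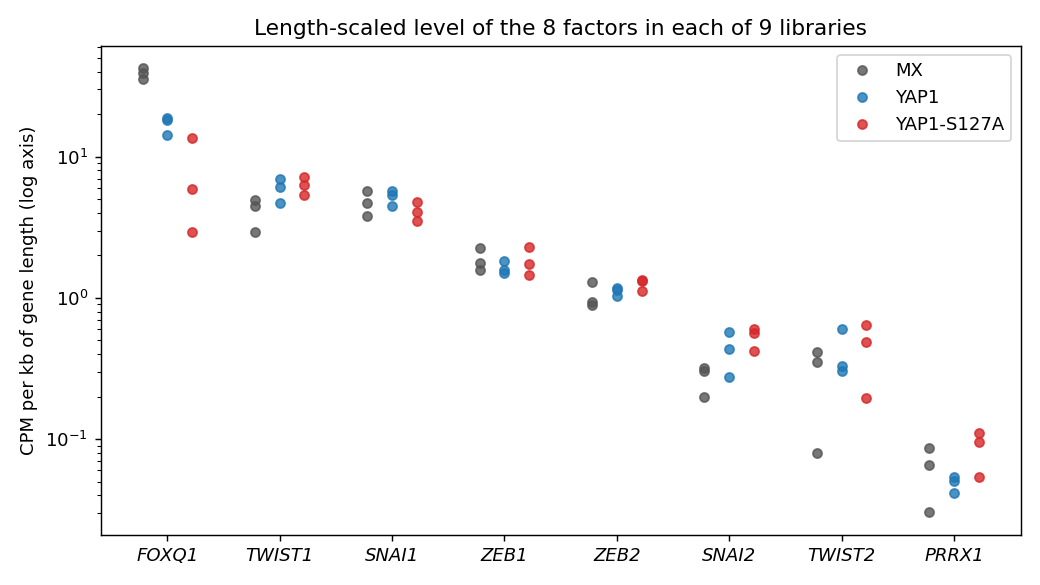
Level of each of the 8 factors on a log axis (CPM per kb of gene length), with 1 dot per library, coloured by group. FOXQ1 is apart from the other factors in MX and YAP1 libraries but meets TWIST1 and SNAI1 in the YAP1-S127A libraries, and PRRX1 is lowest on average.

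With YAP1 the order began with FOXQ1 at 17.1 ± 2.35, TWIST1 at 5.94 ± 1.13 and SNAI1 at 5.21 ± 0.641 CPM per kb, so that TWIST1 and SNAI1 had exchanged places while still overlapping. With YAP1-S127A FOXQ1 had fallen to 7.42 ± 5.45 CPM per kb and overlapped TWIST1 at 6.27 ± 0.891 CPM per kb, and TWIST1 no longer overlapped SNAI1 at 4.13 ± 0.648 CPM per kb. In each group ZEB1 and ZEB2 came next, then SNAI2 and TWIST2, which overlapped, and PRRX1 was last.

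Wild-type YAP1 gave 0 called genes among the 8 factors, where 6.81% of all tested genes were called (3.23% higher and 3.58% lower), and 2 of the 8 had an unadjusted p under 0.05 in edgeR's test. DESeq2 called 0 of the 8 and limma-voom 1, FOXQ1. The median log2 fold change was 0.11 for the factors and -0.00 for all tested genes. YAP1-S127A against MX gave 1 call higher, TWIST1, and 1 lower, FOXQ1, where 18.4% of all tested genes were called (9.53% higher and 8.84% lower), so 2 of 8 is not far from that background. The median log2 fold change was 0.39 for the factors and -0.00 for all tested genes. Between YAP1-S127A and YAP1 0 of 8 were called, where 1.97% of tested genes were (1.13% higher and 0.839% lower), with 1 of the 8 at an unadjusted p under 0.05, 0 called by DESeq2 and 1 by limma-voom, again FOXQ1. The comparisons against MX share the MX libraries and are not independent of each other.

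**Figure D2:**
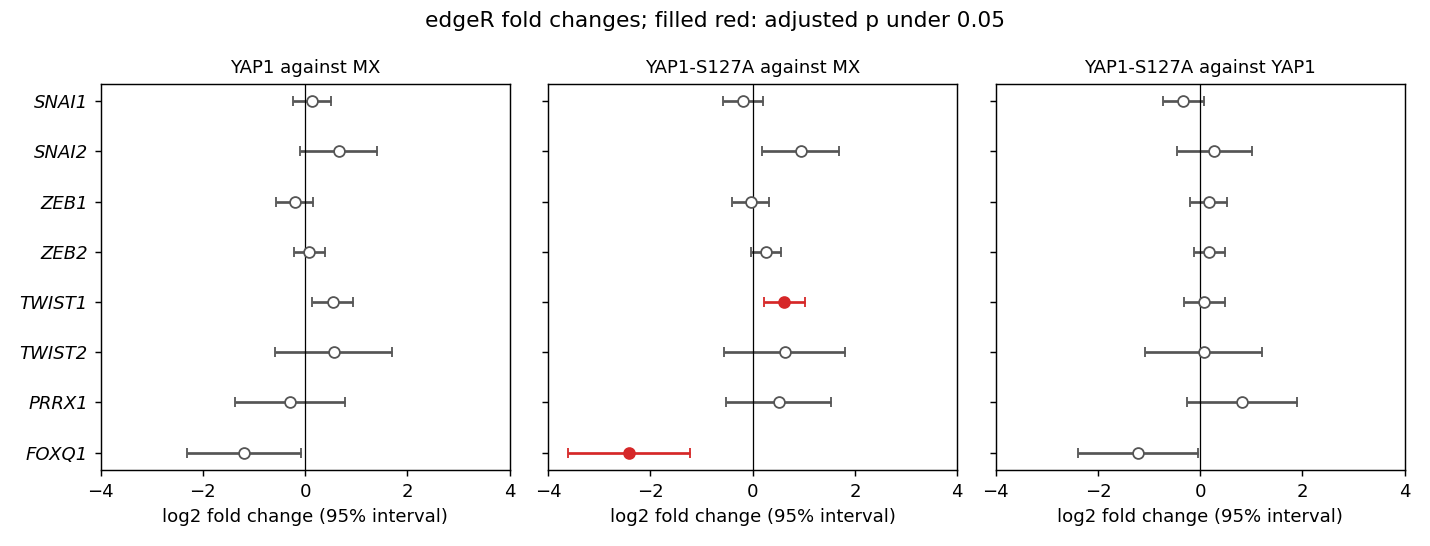
Log2 fold change of each factor with its 95% interval in the 3 comparisons, from edgeR's fit. The 2 filled red points are TWIST1 at 0.62 and FOXQ1 at -2.42 for YAP1-S127A against MX. The intervals of TWIST2, PRRX1 and FOXQ1 span more than 2 log2 units in each comparison.

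FOXQ1, a forkhead factor that can lower CDH1 in epithelial cancer cells, fell the most of the 8 in the YAP1-S127A cells. The gene (ENSG00000164379) is placed in the table on chromosome 6, plus strand, from 1312440 to 1314748, in a human build that the sources used here do not name. Its level in the MX libraries was 90.4, 98.0 and 82.5 CPM, in the YAP1 libraries 43.2, 33.2 and 41.8 CPM, and in the YAP1-S127A libraries 31.1, 6.72 and 13.6 CPM, in the order of replicates 1, 2 and 3. Every YAP1 library lay below every MX library and every YAP1-S127A library below every YAP1 library. Groups that did not overlap, with the first named lower, made up 12% of tested genes when YAP1 was set against MX, 16% when YAP1-S127A was, and 9.34% in the comparison of the constructs. The log2 fold change of FOXQ1 for YAP1-S127A against MX was -2.42 (SE 0.49, adjusted p = 0.0179 in edgeR), a 5.34-fold lower level.

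For YAP1 against MX the log2 fold change of FOXQ1 was -1.20 (SE 0.46, 95% interval -2.31 to -0.08, adjusted p = 0.221), not called in the fit of all 9 libraries. The YAP1-S127A libraries were uneven, at 17.1 ± 12.6 CPM (SD, n = 3), against 39.4 ± 5.42 CPM under YAP1 and 90.3 ± 7.77 CPM in MX, and edgeR uses 1 estimate of the spread for the 3 groups. In a fit of the YAP1 and MX libraries alone the log2 fold change was -1.19 with adjusted p = 2.42e-05, and without YAP1-S127A replicate 1 or 2 the adjusted p was 0.000357 or 0.00790. In all, FOXQ1 was called for YAP1 against MX in only 5 of 19 alternatives, where its adjusted p ran up to 0.463. Between YAP1-S127A and YAP1 the difference was -1.22 (95% interval -2.40 to -0.05, adjusted p = 0.391), and it was called at -1.95 (adjusted p = 0.000118) without YAP1-S127A replicate 1. This difference was called in only 3 of 19 alternatives, with an adjusted p up to 0.75.

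The unevenness of FOXQ1 within the YAP1-S127A group went with the mitochondrial share, which was 29.6, 7.40 and 21.2% in replicates 1, 2 and 3, highest where FOXQ1 was highest. With that share as a covariate the log2 fold change of FOXQ1 was -3.80 between YAP1-S127A and MX (edgeR adjusted p = 8.44e-07), -1.41 between YAP1 and MX (adjusted p = 0.000109) and -2.39 between the constructs (adjusted p = 0.000215). The share did not overlap between MX (1.9 to 6.6%) and YAP1-S127A (7.4 to 29.6%), so share and construct cannot be told apart there. The value of -3.80 extends to shares that these groups did not have in common and is not stronger evidence. The call against MX was lost without YAP1-S127A replicate 3, at -2.26 with adjusted p = 0.0791, and in the fit of those groups alone, at -2.42 with adjusted p = 0.0636. Leaving out replicate 1 of the YAP1-S127A group gave -3.14 and replicate 2 -2.04, both called.

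**Figure D3:**
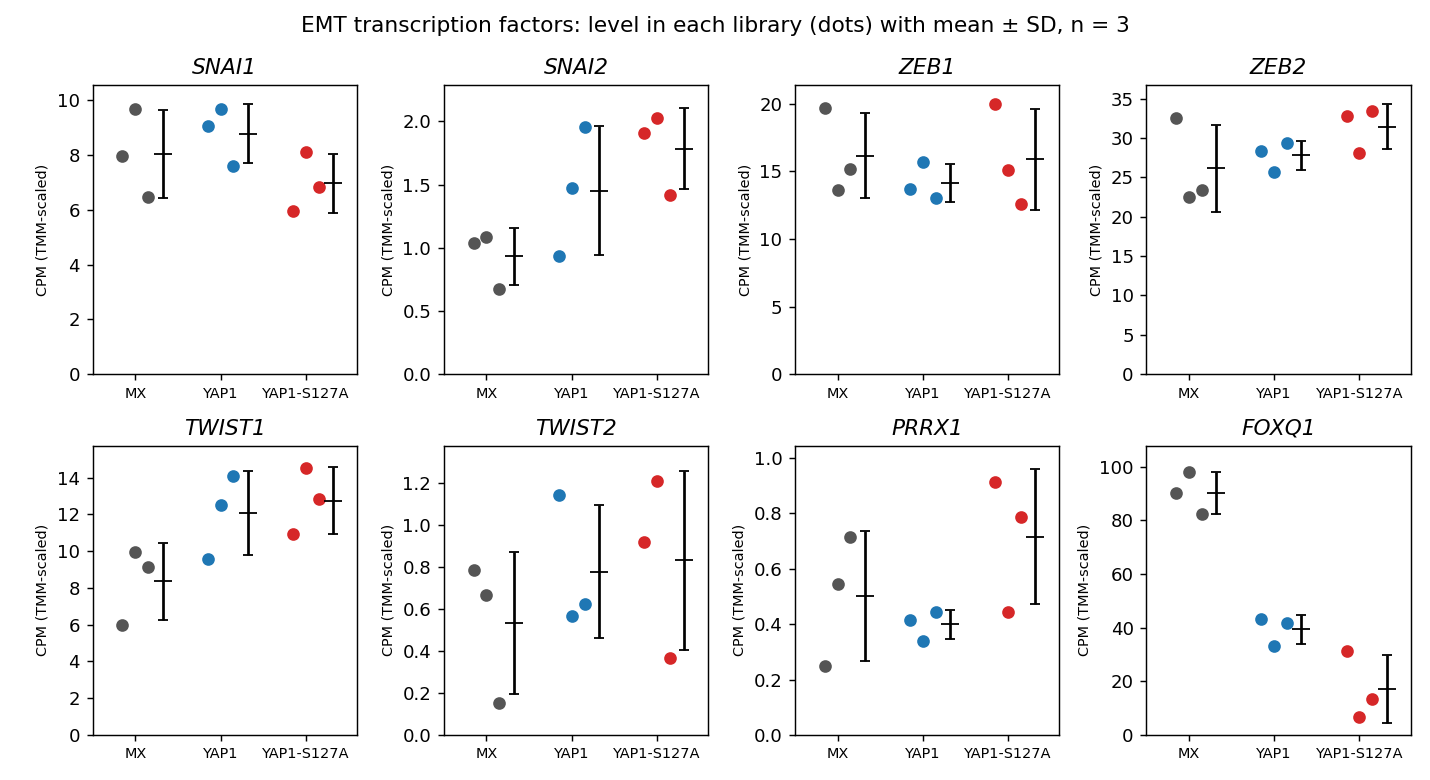
Level of each factor in CPM by group, with 1 dot per library (replicates 1 to 3 from left to right) and the mean ± SD beside them, each panel on its own axis from 0. FOXQ1 steps down over the 3 groups, TWIST1 and SNAI2 lie higher in YAP1-S127A than in MX libraries, and SNAI1, ZEB1, ZEB2, TWIST2 and PRRX1 overlap between MX and each YAP1 construct.

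TWIST1, the basic helix-loop-helix factor that represses CDH1 and supports invasion in carcinoma models, was the only factor called higher. The gene (ENSG00000122691) is listed on chromosome 7 from 19020991 to 19117672 on the minus strand. Its MX libraries had 5.99, 9.97 and 9.13 CPM, its YAP1 libraries 9.59, 12.5 and 14.1 CPM and its YAP1-S127A libraries 10.9, 14.5 and 12.8 CPM. The YAP1-S127A libraries all lay above the MX libraries, as was so for 16.7% of tested genes, whereas YAP1 replicate 1 lay below MX replicate 2. A log2 fold change of 0.62 was found for YAP1-S127A against MX (SE 0.19, adjusted p = 0.0307 in edgeR), a 1.54-fold rise.

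With wild-type YAP1 the log2 fold change of TWIST1 was 0.54 (95% interval 0.14 to 0.95, adjusted p = 0.106), and between the constructs it was 0.08 (95% interval -0.32 to 0.48, adjusted p = 0.919). The call for YAP1-S127A was lost in 5 of 19 alternatives. These were scaling to total counts (0.36, adjusted p = 0.156), the mitochondrial share as covariate (0.74, adjusted p = 0.105), and the fits without MX replicate 1 (0.41, adjusted p = 0.115), YAP1-S127A replicate 2 (0.52, adjusted p = 0.125) or YAP1-S127A replicate 3 (0.63, adjusted p = 0.0863). MX replicate 1, the library lowest for TWIST1, also had the most genes detected, 25491 against 21568 to 23156 in the other libraries.

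TWIST2, the paralogue of TWIST1, had only 4 to 22 counts per library. Its levels were 0.150 to 0.784 CPM in MX, 0.567 to 1.14 CPM under YAP1 and 0.368 to 1.21 CPM with YAP1-S127A, and the groups overlapped. TWIST2 had log2 fold changes of 0.56 for YAP1 (95% interval -0.59 to 1.71, adjusted p = 0.651) and 0.62 for YAP1-S127A (95% interval -0.56 to 1.81, adjusted p = 0.495) against MX. Both intervals hold no change as well as a change of the size measured for TWIST1, so they cannot tell these apart.

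SNAI1, the snail zinc finger repressor and a direct silencer of CDH1, was not called in any comparison. The gene (ENSG00000124216) is listed on chromosome 20, plus strand, from 49982999 to 49988886. It had 7.95, 9.67 and 6.46 CPM in the MX libraries, 9.07, 9.69 and 7.59 CPM under YAP1 and 5.95, 8.12 and 6.83 CPM with YAP1-S127A. The 3 groups overlapped in every comparison. The log2 fold change was 0.14 (95% interval -0.24 to 0.52, adjusted p = 0.754) for YAP1 and -0.19 (95% interval -0.58 to 0.20, adjusted p = 0.532) for YAP1-S127A against MX, and -0.33 (95% interval -0.72 to 0.06, adjusted p = 0.516) between the constructs.

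SNAI2, the slug repressor, was a low transcript with 18 to 44 counts per library. Its levels were 1.03, 1.09 and 0.676 CPM in the MX libraries, 0.933, 1.47 and 1.95 CPM under YAP1 and 1.91, 2.03 and 1.42 CPM with YAP1-S127A. All YAP1-S127A libraries lay above all MX libraries, as was so for 16.7% of tested genes. Its log2 fold change of 0.94 (SE 0.36, 95% interval 0.18 to 1.69) had an unadjusted p of 0.0178 and did not pass the adjusted test in edgeR (adjusted p = 0.0797). It was called in 0 of the 19 alternatives, where its adjusted p ran from 0.0675 to 0.406. Against MX the YAP1 libraries had 0.66 (95% interval -0.09 to 1.41, adjusted p = 0.330).

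ZEB1, a zinc finger homeobox repressor of CDH1 and of junction and polarity genes, had 19.7, 13.6 and 15.2 CPM in MX, 13.7, 15.7 and 13.0 CPM under YAP1 and 20.0, 15.1 and 12.6 CPM with YAP1-S127A. Its groups overlapped throughout. The log2 fold change against MX was -0.20 (95% interval -0.56 to 0.16, adjusted p = 0.590) with YAP1 and -0.04 (95% interval -0.40 to 0.33, adjusted p = 0.916) with YAP1-S127A, so changes of 2-fold in either direction lay outside both intervals. ZEB1-AS1, an antisense gene that overlaps ZEB1, had 5.07 CPM in MX, 4.13 CPM under YAP1 and 4.76 CPM with YAP1-S127A on average and was not called in any comparison. No source used here gives the strand setting of the counting, so reads of this pair may be shared.

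ZEB2, the second ZEB repressor, had 32.6, 22.5 and 23.4 CPM in MX, 28.3, 25.7 and 29.4 CPM under YAP1 and 32.8, 28.2 and 33.4 CPM with YAP1-S127A. MX replicate 1 was high for both ZEB genes and lay among the YAP1-S127A libraries. ZEB2 had log2 fold changes of 0.09 (95% interval -0.21 to 0.38, adjusted p = 0.808) for YAP1 and 0.26 (95% interval -0.04 to 0.56, adjusted p = 0.222) for YAP1-S127A against MX. Without MX replicate 1 the latter was 0.45 and was called (adjusted p = 0.0167), and scaled to total counts it was -0.03 (adjusted p = 0.923).

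PRRX1, a homeobox factor of limb and craniofacial mesenchyme, had 6 to 19 counts per library. Its range was 0.250 to 0.714 CPM in MX, 0.340 to 0.444 CPM under YAP1 and 0.444 to 0.915 CPM with YAP1-S127A, and its groups overlapped against MX. PRRX1 had log2 fold changes of -0.30 (95% interval -1.38 to 0.77, adjusted p = 0.812) for YAP1 and 0.51 (95% interval -0.51 to 1.54, adjusted p = 0.521) for YAP1-S127A. Between the constructs it was 0.81 (95% interval -0.26 to 1.89, adjusted p = 0.564), with the YAP1-S127A libraries at or above the highest YAP1 library by a margin too small to read from single counts. Groups that did not overlap, with the first named higher, made up 10.3% of tested genes in that comparison and 12.1% for YAP1 against MX.

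Genes near the 8 factors were examined within 500 kb on either side, a window chosen after the values of the factors were seen. TWIST1 had 1 tested neighbour, HDAC9, a histone deacetylase whose introns hold enhancers of TWIST1 in mesenchymal tissue, 18.6 kb away. HDAC9 had 13.2 ± 2.01 CPM in MX, 24.7 ± 2.07 CPM under YAP1 and 25.8 ± 3.97 CPM with YAP1-S127A (SD, n = 3). Its YAP1 and YAP1-S127A libraries all lay above its MX libraries, as was so for 12.1 and 16.7% of tested genes. It rose by 0.90 on the log2 scale with YAP1 (SE 0.15, edgeR adjusted p = 0.000580) and by 0.96 with YAP1-S127A (SE 0.15, adjusted p = 0.000121), and both calls held in 19 of 19 alternatives.

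FOXQ1 had 2 tested neighbours in its window. FOXC1, another forkhead factor linked to EMT, 295.2 kb away, fell by 0.50 with YAP1-S127A (edgeR adjusted p = 0.0107), a call that was lost without YAP1-S127A replicate 2 (adjusted p = 0.0703) or 3 (adjusted p = 0.0618), and had -0.14 with YAP1 (adjusted p = 0.622). GMDS, an enzyme of GDP-fucose synthesis, 309.1 kb away, had -0.15 with YAP1-S127A (adjusted p = 0.523). Of 12 tested neighbours of SNAI1 1 was called in YAP1-S127A cells and 0 in YAP1 cells, and of 4 around ZEB1, 2 around ZEB2 and 1 around PRRX1 0 were called in any comparison. TWIST2 had 3, of which ASB1, a ubiquitin ligase subunit 395.8 kb away, rose by 0.53 with YAP1 (adjusted p = 0.00781) and by 0.64 with YAP1-S127A (adjusted p = 0.000672), so HDAC9 was not the only neighbour called higher with both constructs. Scaled to total counts both calls of ASB1 were lost (adjusted p = 0.0862 and 0.0869). SNAI2 had 0 tested neighbours. Over all tested genes 6.81% were called with YAP1 and 18.4% with YAP1-S127A.

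Likeness was measured against 9523 protein-coding genes whose mean log2 CPM reached 3. The profiles most like FOXQ1 over the 9 libraries were those of CA2, carbonic anhydrase 2 (Pearson r = 0.984), DLGAP1, a scaffold protein (0.980), and DUSP6, a phosphatase that switches off ERK (0.971). CA2 averaged 194.8 CPM in MX, 135.9 CPM under YAP1 and 91.8 CPM under YAP1-S127A. The closest to TWIST1 were ZMYND19 (0.985), SLC2A8, a glucose transporter (0.982), and NUDT18, a nudix hydrolase (0.979). These values describe 9 libraries that share 3 groups and their depths, and the genes named are the extremes of a search.

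The other genes of the EMT network came from 8 lists, chosen with earlier results of these data known, and some genes stand in more than one. Of 20 further EMT-linked factors 17 were tested, and with YAP1-S127A 6 fell and 1 rose, where with YAP1 1 fell and 1 rose. Of all tested genes 8.84% fell and 9.53% rose with YAP1-S127A and 3.58% fell and 3.23% rose with YAP1. Scaled to total counts 9 fell and 1 rose with YAP1-S127A. SOX9, a progenitor factor that acts with SNAI2 in breast cells, went from 136.7 ± 21.4 CPM in MX to 67.6 ± 14.5 CPM with YAP1-S127A (SD, n = 3), which is -1.02 on the log2 scale (SE 0.15, edgeR adjusted p = 7.41e-05). HMGA2, an architectural chromatin protein that can induce SNAI1 and TWIST1, was abundant and fell by 0.85 (adjusted p = 0.000673) from 922.7 to 510.9 CPM, and SOX4 fell by 0.58 (adjusted p = 0.00162). GATA6, an endodermal factor, fell by 0.49 with YAP1 (adjusted p = 0.0395), a call lost in 8 of 19 alternatives, up to an adjusted p of 0.220 without YAP1 replicate 3, and by 0.52 with YAP1-S127A (adjusted p = 0.0149, lost in 3 of 19).

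The gene that rose was PRRX2, the paralogue of PRRX1, at a very low level. It had 4, 1 and 1 counts in the MX libraries, 13, 8 and 6 with YAP1 and 6, 18 and 16 with YAP1-S127A. Every construct library thus held more counts than every MX library. With so few MX counts it could pass the filter on low counts only through construct libraries, where it was high, so its calls are not independent support. The edgeR test called PRRX2 for YAP1 (adjusted p = 0.0461) and YAP1-S127A (adjusted p = 0.00174). The former call held in only 8 of the 17 alternatives that gave it an adjusted p. Its fold depends on the few MX counts and is not given.

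The dimer partners of TWIST proteins and the ID proteins that compete for them differed in their calls. TCF3, TCF4 and TCF12 were not called in any comparison, while 3 ID genes fell with YAP1 and 2 with YAP1-S127A out of 6 tested genes in the list (2 and 1 when the mitochondrial share was a covariate), where 3.58 and 8.84% of all tested genes fell. ID2 had 30.7, 31.1 and 27.4 CPM in MX, 13.8, 14.4 and 12.1 CPM under YAP1 and 7.24, 8.75 and 8.67 CPM with YAP1-S127A. Its groups had 0 overlap. The same held, with the first named lower, for 12% of tested genes with YAP1, 16% with YAP1-S127A and 9.34% between the constructs. ID2 fell by 1.15 with YAP1 (edgeR adjusted p = 1.55e-05) and by 1.85 with YAP1-S127A (adjusted p = 2.32e-08), and by 0.70 between the constructs (adjusted p = 0.0107, 0.0665 without YAP1 replicate 2 and 0.149 with the mitochondrial share as covariate).

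ID1 was lowest with wild-type YAP1, though its difference between the constructs was not called (0.54, edgeR adjusted p = 0.3465). Its libraries held 24.1, 40.8 and 19.7 CPM in MX, 10.6, 10.3 and 7.63 CPM under YAP1 and 14.9, 14.1 and 12.2 CPM with YAP1-S127A. It fell by 1.57 with YAP1 (adjusted p = 0.000304) and by 1.03 with YAP1-S127A (adjusted p = 0.00347, or 0.0531 with the mitochondrial share as covariate). ID3 fell by 0.97 with YAP1 (adjusted p = 0.0345), a call lost in 6 of 19 alternatives, among them without MX replicate 2 (adjusted p = 0.145) and without any 1 of the YAP1 libraries (adjusted p up to 0.132).

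Among 14 corepressors that SNAIL and ZEB proteins recruit, 2 rose and 0 fell with YAP1, and 3 rose and 3 fell with YAP1-S127A (2 and 5 scaled to total counts, 2 and 0 when the mitochondrial share was a covariate). Over all tested genes 6.81 and 18.4% were called. Both that rose with YAP1 are LIM proteins of the AJUBA family, which bridge SNAIL to its corepressors and also restrain the Hippo kinases. AJUBA had 51.5 to 52.8 CPM in MX, 95.8 to 105.8 CPM under YAP1 and 132.6 to 144.9 CPM with YAP1-S127A, with no overlap. The same held, with the first named higher, for 12.1% of tested genes with YAP1, 16.7% with YAP1-S127A and 10.3% between the constructs. AJUBA rose by 0.93 with YAP1 (SE 0.11, adjusted p = 1.27e-05) and by 1.41 with YAP1-S127A (SE 0.11, adjusted p = 2.32e-08). WTIP rose by 0.66 (adjusted p = 0.0112, or 0.0626 without YAP1 replicate 3) and 1.37 (adjusted p = 3.24e-06), while the third of the family, LIMD1, had 0.23 and 0.35 and was not called (adjusted p = 0.309 and 0.0569). HDAC1, a histone deacetylase of the SNAIL complex, fell by 0.45 with YAP1-S127A (adjusted p = 0.00510, or 0.171 with the mitochondrial share as covariate).

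Of 12 tested genes that set the turnover of SNAIL proteins 0 were called with YAP1, with 0 in each of the 19 alternatives. With YAP1-S127A 2 fell and 1 rose, where 18.4% of all tested genes were called. PAK1, a kinase that phosphorylates SNAI1, fell by 0.38 (adjusted p = 0.0202) and DUSP4, a phosphatase, by 0.60 (adjusted p = 0.0246). Both calls were lost without YAP1-S127A replicate 3 (adjusted p = 0.118 and 0.132), without MX replicate 3 (0.0631 and 0.101) and with the mitochondrial share as covariate (0.386 and 0.271), and that of PAK1 also without YAP1-S127A replicate 1 (0.0516). Scaled to total counts 6 of the 12 fell and 0 rose, and with the mitochondrial share as covariate 0 were called. FBXL5, a ubiquitin ligase subunit, had 0.33 (adjusted p = 0.0476) and kept its call in 8 of 19 alternatives. The host transcript of the miR-200c cluster, MIR200CHG, whose microRNAs hold down ZEB1 and ZEB2, had 1 count in MX replicate 1 and 0 in the other 8 libraries, where a count of 0 allows up to 0.113 to 0.229 CPM (3 counts, counting error only). Of 6 tested genes in the list of microRNA hosts and antisense genes 0 were called in any comparison, also in each alternative.

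**Figure D4:**
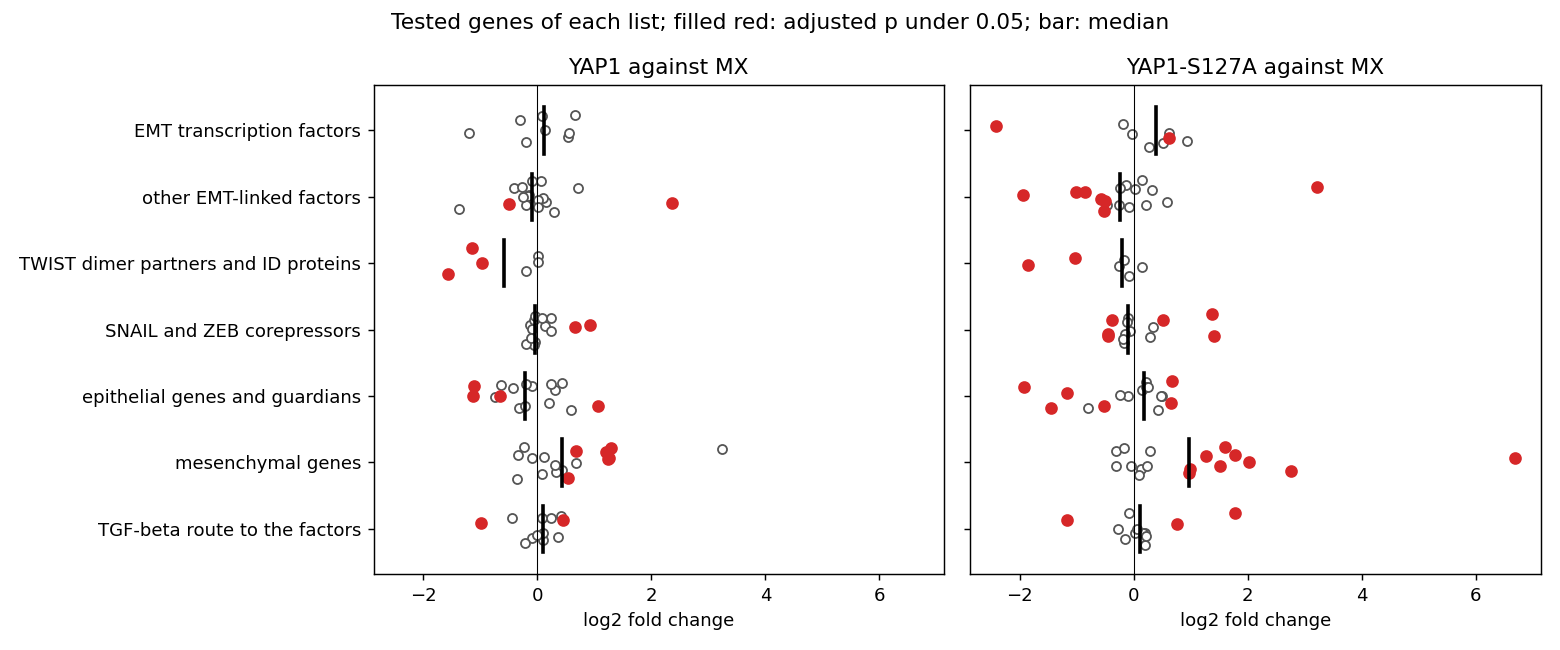
Log2 fold change against MX of every tested gene in 7 of the lists, for YAP1 (left) and YAP1-S127A (right), with called genes in filled red and a bar at each list's median. The EMT transcription factors hold 0 called genes on the left and 2 on the right, and the mesenchymal genes have 6 and 9 called, all higher.

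CDH1, the gene that these repressors share as a target, fell with both constructs. It had 27.2, 26.7 and 20.4 CPM in MX, 17.2, 17.3 and 12.7 CPM under YAP1 and 5.11, 8.18 and 6.09 CPM with YAP1-S127A, and no group overlapped another. The same held, with the first named lower, for 12% of tested genes with YAP1, 16% with YAP1-S127A and 9.34% between the constructs. CDH1 had log2 fold changes of -0.65 with YAP1 (SE 0.17, edgeR adjusted p = 0.0231) and -1.93 with YAP1-S127A (SE 0.18, adjusted p = 3.60e-07), and -1.28 between the constructs (SE 0.19, adjusted p = 0.000927). The call for YAP1 was lost without YAP1 replicate 3 (-0.52, adjusted p = 0.162) or MX replicate 2 (-0.60, adjusted p = 0.0714), and the other pair of calls held in 19 of 19 alternatives each.

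Of 22 epithelial genes and their guardians 16 were tested, 3 fell and 1 rose with YAP1, and 4 fell and 2 rose with YAP1-S127A (6 and 1 scaled to total counts, 3 and 4 when the mitochondrial share was a covariate), beside 6.81 and 18.4% called over all tested genes. EPCAM, an epithelial adhesion molecule, went from 16.3 ± 2.20 CPM in MX to 7.49 ± 1.28 CPM under YAP1 and 7.27 ± 1.64 CPM with YAP1-S127A (SD, n = 3), log2 fold changes of -1.12 (adjusted p = 0.000464) and -1.16 (adjusted p = 0.000146). LLGL2, a polarity protein, went from 18.7 ± 2.68 to 8.67 ± 0.317 and 6.81 ± 0.635 CPM, log2 fold changes of -1.11 (adjusted p = 7.47e-05) and -1.45 (adjusted p = 1.54e-06). DSP, the desmosomal plaque protein, rose by 1.07 with YAP1 (adjusted p = 0.000786), and MAL2, a protein of apical transport, by 0.68 with YAP1-S127A (adjusted p = 0.000302). Among the genes below the filter, OVOL2 had 0 counts in all libraries and GRHL2 had 1 count in 1 library, both transcription factors that hold cells epithelial by repressing ZEB1.

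**Figure D5:**
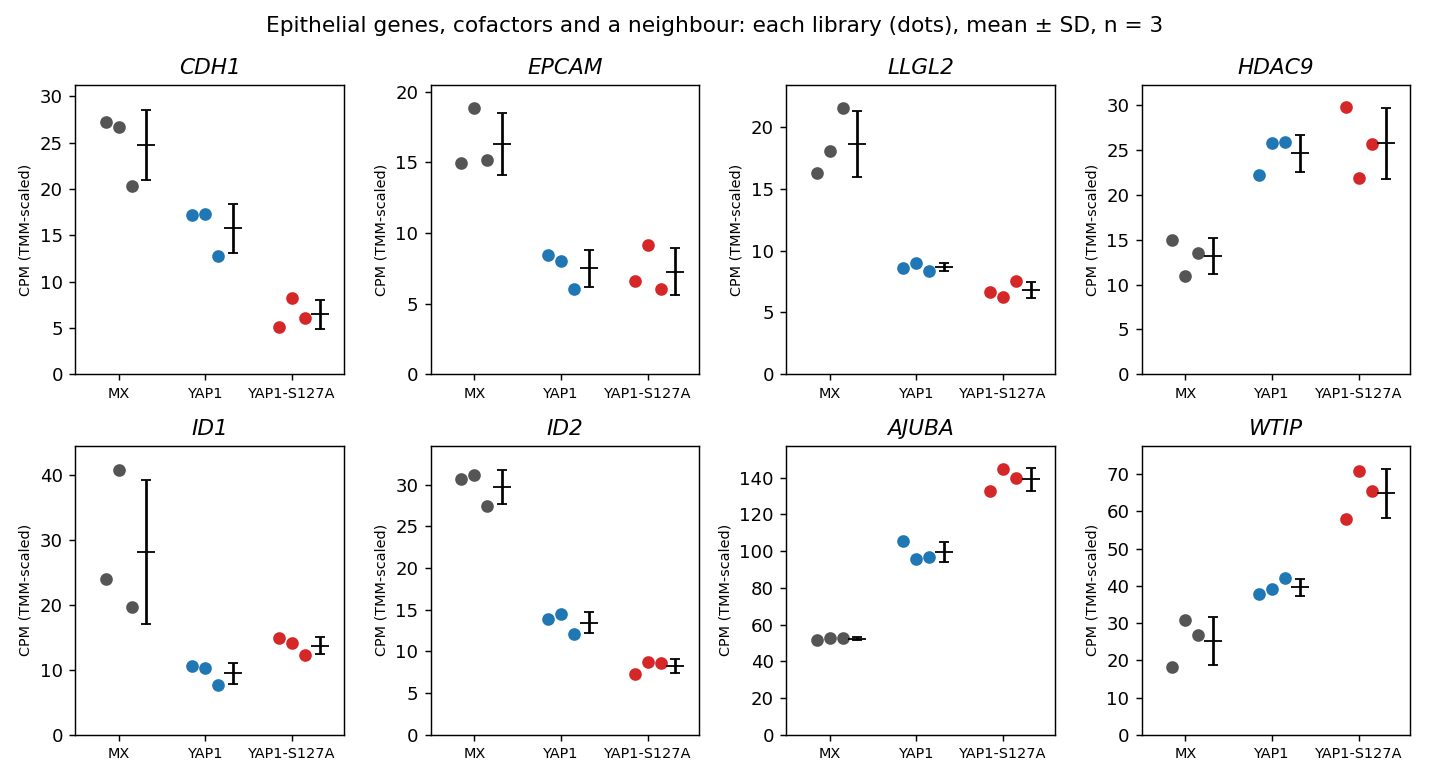
CPM in each library by group (dots, replicates 1 to 3 from left to right) with mean ± SD, for 3 epithelial genes, the TWIST1 neighbour HDAC9, ID1 and ID2, and the corepressors AJUBA and WTIP. CDH1 and ID2 step down over the groups from 24.8 to 6.46 and from 29.7 to 8.22 CPM, AJUBA steps up from 52.3 to 139.1 CPM, and ID1 is lowest with YAP1.

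Mesenchymal genes rose in 6 of 17 tested members with YAP1 and in 9 with YAP1-S127A, with 0 lower in both (8 and 2 with YAP1-S127A when scaled to total counts), where 3.23 and 9.53% of all tested genes were called higher. This list too was chosen with earlier results known, so the shares only describe it. Between the constructs 5 rose and 1 fell, where 1.13 and 0.839% of all tested genes did. The 1 that fell was CTHRC1, by 1.45 (edgeR adjusted p = 0.00256), which had risen with YAP1. VIM and CDH2 were not among the genes that rose. VIM had 2928 ± 151 CPM in MX, 2293 ± 409 CPM under YAP1 and 2356 ± 308 CPM with YAP1-S127A (SD, n = 3), with log2 fold changes of -0.35 (adjusted p = 0.198) and -0.31 (adjusted p = 0.169, and -0.57 with adjusted p = 0.0152 when scaled to total counts). CDH2 had -0.09 (95% interval -0.40 to 0.23, adjusted p = 0.820) and 0.14 (95% interval -0.18 to 0.45, adjusted p = 0.594). FN1, fibronectin, rose by 0.69 with YAP1 (adjusted p = 0.0154), a call lost without MX replicate 3 (adjusted p = 0.0909) or YAP1 replicate 2 (0.0578) or 3 (0.0977), and had 0.09 with YAP1-S127A (adjusted p = 0.780). The difference of FN1 between the constructs was -0.60 (adjusted p = 0.0756).

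Among the members of the mesenchymal list with the smallest p were TAGLN, the actin-binding transgelin, which rose by 1.20 with YAP1 and 2.76 with YAP1-S127A, and MMP2, a gelatinase, with 1.26 and 1.52, with edgeR adjusted p between 1.00e-08 and 0.000441. The summed level of 8 fibroblast markers, of which COL3A1 and THY1 also stand in the mesenchymal list, was 29.4 to 36.8 CPM in MX, 27.6 to 32.4 CPM under YAP1 and 45.3 to 79.2 CPM with YAP1-S127A, with DPT at 0 in all libraries and PDGFRA at no more than 0.178 CPM. Of 4 tested fibroblast markers 3 rose and 0 fell with YAP1-S127A, where 9.53% of all tested genes rose. These were LUM (3.53, edgeR adjusted p = 8.18e-08), FAP (2.11, adjusted p = 0.00742) and PDGFRB (0.63, adjusted p = 0.00579). FAP had only 9, 6 and 3 counts in the MX libraries. It could pass the filter on low counts only through construct libraries, where it was high, so its call is not independent support. The part of the fibroblast markers in the rises of the mesenchymal list was not tested.

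Among 12 genes by which TGF-beta, a classic inducer of these factors, signals, 1 rose and 1 fell with YAP1, and 2 rose and 1 fell with YAP1-S127A (2 and 2 scaled to total counts). With 6.81 and 18.4% called over all tested genes, counts of 2 and 3 in 12 do not stand clearly apart from the background. TGFB2, a ligand, went from 5.26 ± 1.34 CPM in MX to 7.04 ± 1.36 CPM under YAP1 and 18.0 ± 2.68 CPM with YAP1-S127A (SD, n = 3), a log2 fold change of 1.78 (adjusted p = 3.05e-06) for YAP1-S127A against MX. TGFBR2, a receptor, rose by 0.46 with YAP1 (adjusted p = 0.0234, lost in 5 of 19 alternatives with an adjusted p up to 0.182) and by 0.75 with YAP1-S127A (adjusted p = 0.000155). TGFB3, another ligand, fell by 1.00 with YAP1 (adjusted p = 0.0127, lost in 3 of 19 alternatives, all without 1 library, up to 0.0740 without YAP1 replicate 1) and by 1.16 with YAP1-S127A (adjusted p = 0.00212).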

How the data were processed

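Messenger RNA of 9 Caki libraries was sequenced from stranded libraries, per the labels' protocols. The authors deposited a table of raw counts with a column for each library and no visible normalization, and a gene length in bases, used here only for levels per kb. The tools listed in the submitters' processing notes are HISAT2, Cufflinks and Salmon 1.9.0, beside the mouse build GRCm39, with no role given. The table lists human genes, and no source used here gives its build, annotation or strand setting. No human sequence was at hand, so none is shown.

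Genes were kept by filterByExpr, scaled by TMM and tested two-sided by edgeR's quasi-likelihood test (edgeR 4.0.16, R 4.3.3; Benjamini-Hochberg adjustment) in a robust fit whose sole term was the group. Standard errors were taken as the size of the log2 fold change over the root of F. The steps were also run on simulated counts, whose outcome is not reported here and is not used as support. Alternatives were RLE and total-count scaling, no or a stricter filter, DESeq2 1.42.0, limma-voom 3.58.1, the compared groups alone, the replicate number as a block, the mitochondrial share as covariate, mitochondrial genes left out, and each library left out.

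The members, lists and rules were chosen with earlier results of these data known. Named beside the 8 factors were YAP1, CDH1, VIM, CDH2 and FN1, up to 3 called genes per list and comparison with the smallest p (not all are printed), and the 3 genes most correlated with each called factor; neighbours, CDH6, LIMD1, FOXC1, OVOL2, GRHL2 and microRNA hosts fall outside this rule.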

Additional observations from a re-analysis of the deposited data

How the results depend on the processing

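Of 736 fold changes recomputed for the 8 factors, YAP1, CDH1, VIM, CDH2 and FN1, 675 kept direction and call, 13 lost a call, 19 gained one and 29 changed sign, 0 of them where either value was called. The cause of these shifts was not tested.

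Counts of called factors for YAP1 against MX went from 0 to 1 with no filter, with limma-voom, with the compared groups alone, with the replicate block and with the mitochondrial covariate, and to 0 to 1 without single libraries. For YAP1-S127A against MX they went from 2 to 1 with total counts, the compared groups alone or the mitochondrial covariate, and to 0 to 2 without single libraries. Between the constructs they went from 0 to 1 with limma-voom or the mitochondrial covariate, and to 0 to 1 without single libraries.

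All called genes for YAP1 against MX, 1055, numbered 601 to 1423 without single libraries. For YAP1-S127A against MX, 2845, they numbered 4447 with total counts, 1405 with the mitochondrial covariate and 1847 to 3079 without single libraries. Between the constructs, 305, they numbered 616 with total counts, 520 with no filter, 475 with DESeq2, 478 with the compared groups alone, 472 with the replicate block and 126 to 465 without single libraries. The mean level of ZEB2 with YAP1-S127A was 28.0 CPM of total counts against 31.5 TMM-scaled.

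Deviations from the group means correlated at -0.18 to 0.20 over 9 same-numbered pairs of libraries, 1 of them over 0.1. Over 18 differently numbered pairs the range was -0.25 to 0.21, with 3 over 0.1. So few pairs cannot settle whether the numbers pair the libraries. The replicate block raised all calls to 1428 for YAP1 against MX and 3426 for YAP1-S127A against MX, and called TWIST1 for YAP1 (0.55, adjusted p = 0.0233).

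Sign changes with total counts were ZEB2 -0.026, CDH2 -0.12 and FN1 -0.21 for YAP1-S127A against MX, and ZEB1 -0.0503, ZEB2 -0.0343, TWIST1 -0.11, TWIST2 -0.13 and VIM -0.16 between the constructs. With the mitochondrial covariate SNAI1 had 0.0083 and FN1 -0.25 for YAP1-S127A against MX, and with limma-voom TWIST2 had -0.0363 between the constructs. Without single libraries the ranges that crossed 0 for YAP1 against MX were SNAI1 -0.003 to 0.28, ZEB2 -0.0054 to 0.27, PRRX1 -0.66 to 0.10 and CDH2 -0.20 to 0.0431. For YAP1-S127A against MX they were ZEB1 -0.23 to 0.12, CDH2 -0.0161 to 0.26 and FN1 -1e-04 to 0.19, and between the constructs ZEB1 -0.037 to 0.31, TWIST1 -0.0675 to 0.21, TWIST2 -0.34 to 0.45 and VIM -0.0949 to 0.16. TWIST2 and PRRX1 had at most 22 counts per library. Their 95% intervals and that of FOXQ1, which was uneven with YAP1-S127A, were the widest of the 8 factors in each comparison.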
